A study of Oryza sativa Japonica Group with 36 samples.

Results

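The genes described here are α-amylases of rice, enzymes of starch breakdown, followed through 48 h of cold in the shoots of 2 lines. LOC_Os08g36910, an α-amylase locus, was chosen by its cold induction in these arrays, so its change in the cold is given as a description with no test. To it were added the genes whose symbol or synonym in the RefSeq gene table is AMY with a number. This made 7 α-amylase genes, of which 6 had a probe set on the array and 1, AMY3B, had none in the table used here. AMY3D had 2 probe sets, so 7 of the 57258 probe sets tested belong to these genes. α-Amylases listed under a number only would be missed, so the whole family on the array is not covered. Where a gene had more than 1, its brighter probe set stands for it. LOC_Os08g36910 and AMY3D were read from different probe sets. The tables at hand do not pair that locus number with a RefSeq gene, so both may report on one and the same gene, and a change of AMY3D is no independent support for one of LOC_Os08g36910. In the same table (assembly ASM3414082v1) AMY3E lies directly beside AMY3D, and AMY3A directly beside AMY3B.

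K354 is an introgression line, bred by backcrossing to the japonica restorer line C418 with the indica variety Bg300 as donor, and it tolerates cold better than C418, its cold-sensitive recurrent parent. Whole shoots were taken at the 3-leaf stage, in 6 groups from K354 and 6 from C418: a control kept at 25 °C, for which the study pooled shoots from an early and a late sampling time, and shoots held at 4 °C for 2, 6, 12, 24 or 48 h. Each group had 3 arrays from separate pots of seedlings, 36 arrays in all. K354 stands for 1 fixed line, so a difference between K354 and C418 is one between these 2 lines, and since the control is a pool, time of day is not matched between it and the cold samples.

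Starch granules in leaves are built up by day and broken down by night. α-Amylases cut inside the glucan chains, β-amylases release maltose from chain ends, disproportionating enzymes rework the short glucans and maltose, and a maltose exporter passes maltose from the chloroplast to the cytosol. In rice the α-amylase family is best known from germinating seed, where gibberellin and sugar starvation switch its members on. AMY3D is the classical sugar-starvation member, and AMY1A a classical gibberellin-responsive one.

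Values are probe set intensities on a linear scale, and differences are on the log2 scale. "Rose" and "fell" mark an adjusted p under 0.05 in 1 limma model of all 12 groups (Benjamini-Hochberg over all 57258 probe sets). A probe set under the 25th percentile of its array, which lay at an intensity of 26.0 to 30.0, counted as dim, and where all 3 arrays of a group were dim the fold is given as a lower bound. The median of an array was 55.5 to 67.9, and arrays of 1 group correlated at 0.979 to 0.996. Array 3 of C418 at 6 h and array 2 of K354 at 24 h stood somewhat apart from their group. Array 3 of C418 correlated at 0.989 and 0.99 with its group mates, against 0.994 between those, and array 2 of K354 at 0.983 and 0.979, against 0.992. Control RNAs of the array were brighter at 48 h than in the control, the hybridization set by 0.67 in K354 and 0.81 in C418 and the poly-A set by 1.35 and 1.46, so that scaling to them lowers every 48 h difference by these amounts. Of the leaf markers 5 were measured, with a summed intensity of 39431 to 41021 in K354 at 48 h against 49276 to 49552 in its control, and of 21528 to 33391 in C418 at 48 h against 47768 to 48850 in its control. RBCS-A among them was dim on all 36 arrays. For other tissues, the seed storage genes GLUA1, GLUA3 and GLUD1 were dim on all 36 arrays while GLUA2 lay at 404 to 924, GLUB4 and GLUB5 were dim on 1 and 2 arrays only, and PROLM25 was dim on 28. The 7 seed genes summed to 567 to 1118 over the groups, and the root silicon transporter Lsi2 was dim on 35 while Lsi1 lay at 100 to 287. In whole shoots, fewer cells of a type and less RNA per cell cannot be told apart.

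LOC_Os08g36910 (its probe set is of a kind that can match several similar genes) was dim in both controls and well above the dim range from 12 h on in both lines. In K354 it read 7.54, 7.85 and 9.0 in the control, 5.31, 4.08 and 4.71 at 2 h and 48.0, 22.3 and 45.6 at 6 h. Later in K354 it read 184, 238 and 192 at 12 h, 850, 454 and 793 at 24 h and 974, 1332 and 1275 at 48 h. In K354 every array from 6 h on lay above the 3 of the control, and those of 2 h lay below them. In C418 it read 8.36, 5.47 and 6.64 in the control, 17.3, 28.6 and 39.4 at 2 h and 51.5, 72.4 and 10.9 at 6 h. Later in C418 it read 100, 144 and 206 at 12 h, 591, 671 and 812 at 24 h and 2020, 2086 and 1809 at 48 h. Here the 2 h arrays already lay above the control, and array 3 at 6 h, one of those that stood apart, lay below both other pots and below the 2 h arrays.

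**Figure D1:**
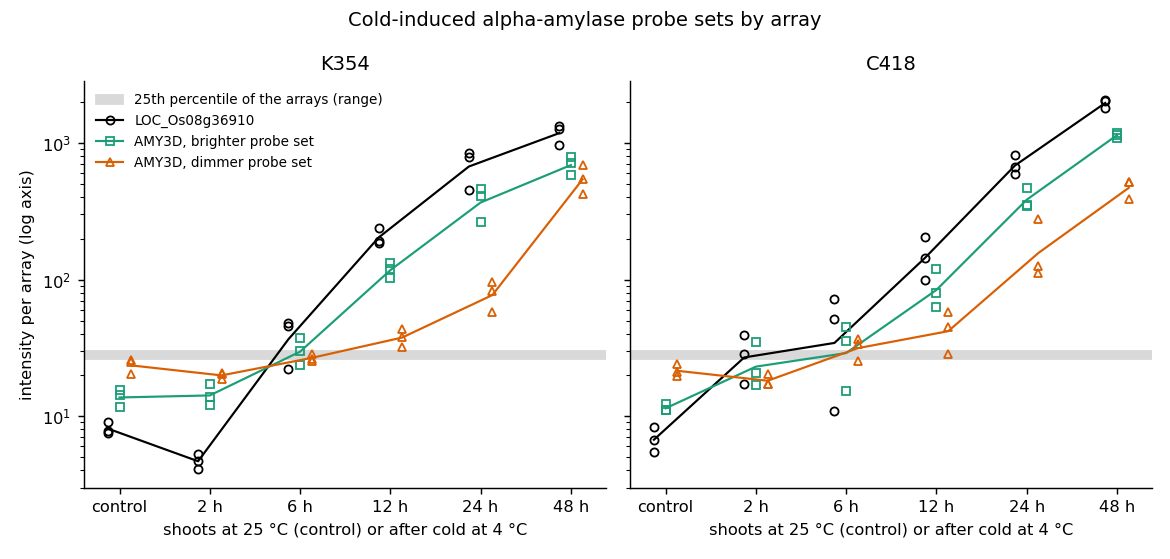
Intensity (log axis) of LOC_Os08g36910 and of both AMY3D probe sets in each of the 36 arrays, by condition, with K354 in the left panel and C418 in the right. Points are arrays, lines join the geometric means of the 3 arrays, and the grey band is the range of the 25th percentile over the arrays. LOC_Os08g36910 reached 974 to 1332 in K354 and 1809 to 2086 in C418 at 48 h, and the dimmer AMY3D probe set left the level of its control later than the other probe sets.

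At 48 h the mean of LOC_Os08g36910 was 1194 ± 192 in K354 against 8.13 ± 0.769 in its control (SD, n = 3), and 1972 ± 144 in C418 against 6.82 ± 1.45 in its control. Since both controls were dim, this was an increase of at least 41.6-fold in K354 and at least 70.5-fold in C418. The lower bounds grew through the course: in K354 they were 1.29-fold at 6 h, 7.16-fold at 12 h and 23.7-fold at 24 h, and in C418 1.23-fold, 5.16-fold and 24.5-fold at the same times. On the log2 scale the fitted differences from the control, from 2 h through 48 h, were −0.79, 2.17, 4.65, 6.38 and 7.19 in K354 and 2.0, 2.36, 4.42, 6.67 and 8.19 in C418 (SE 0.426). These rest on dim control readings, so the lower bounds are the firmer values. All 5 cold comparisons of a line share its control arrays.

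Ordered by group mean, C418 at 48 h stood first and K354 at 48 h next, and neither overlapped with its neighbour. K354 at 24 h (699 ± 214) and C418 at 24 h (691 ± 112) followed and overlapped, as did K354 at 12 h (205 ± 29.3) and C418 at 12 h (150 ± 53.2). Below them C418 at 6 h (44.9 ± 31.3), K354 at 6 h (38.6 ± 14.2) and C418 at 2 h (28.5 ± 11.0) overlapped one with the next. The 2 controls overlapped too, and K354 at 2 h (4.7 ± 0.615) was lowest of all and clear of both. From 12 h on, the groups of each time thus stood above those of the time before, while the order among the dim groups has no firm meaning.

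Between the lines, the 2 h difference of LOC_Os08g36910 was past the threshold. K354 had 5.31, 4.08 and 4.71 at 2 h, against 17.3, 28.6 and 39.4 in C418, a difference of −2.53 (95% interval −3.4 to −1.66, limma adjusted p = 5.5e-05) with no overlap of arrays. The change from control to 2 h differed by −2.8 between K354 and C418 (SE 0.602, interval −4.03 to −1.56, limma adjusted p = 0.0089). Because the locus was chosen by its cold induction in these arrays, the p-values of its interactions, here and at later times, are not free of that choice. Of the 12 control and 2 h arrays of both lines all but the 28.6 and 39.4 of C418 were dim, and with values raised to that percentile the line difference was −0.19 (adjusted p = 0.67) and the interaction −0.21 (adjusted p = 0.92). The line difference passed by the methods' t-test (adjusted p = 0.027). By a SAM statistic, here a t statistic with the median SE added to its denominator, it missed the threshold (adjusted p = 0.2).

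At the other times no line difference of LOC_Os08g36910 passed. It was 0.27 in the control (adjusted p = 0.83), 0.09 at 6 h (adjusted p = 0.92), 0.5 at 12 h (adjusted p = 0.51) and −0.02 at 24 h (adjusted p = 0.98). At 48 h the 974, 1332 and 1275 of K354 lay wholly below the 2020, 2086 and 1809 of C418, yet the difference of −0.73 (interval −1.61 to 0.14) had an adjusted p of 0.26. The interactions were −0.18 at 6 h, 0.23 at 12 h and −0.29 at 24 h (adjusted p of 0.98, 0.91 and 0.95), and −1.01 at 48 h (interval −2.24 to 0.23, adjusted p = 0.36). With the groups concerned fitted alone, the 48 h line difference and the 48 h interaction each had an adjusted p of 0.034. Without array 3 of C418 at 6 h, the difference from control in C418 at 6 h became 3.18, and the line difference there −0.74 (adjusted p = 0.14).

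**Figure D2:**
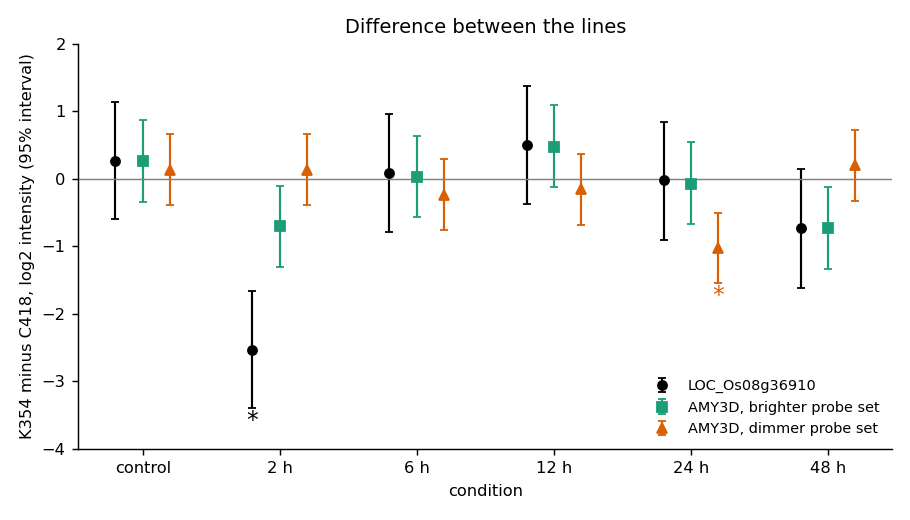
Log2 difference of K354 minus C418 (log2 intensity) for LOC_Os08g36910 and both AMY3D probe sets in the control and at the 5 times of cold. Points are limma estimates, bars their 95% intervals, and a star marks an adjusted p under 0.05. The largest difference, −2.53, is that of LOC_Os08g36910 at 2 h, and at 48 h both it and the brighter AMY3D probe set lie at −0.73.

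AMY3D rose in the cold in both lines. Should it be the same gene as LOC_Os08g36910, it was itself chosen by its cold induction. The cold tests of AMY3D are then a description only. On its brighter probe set K354 read 11.7, 15.5 and 14.2 in the control, 17.2, 12.1 and 13.7 at 2 h and 37.2, 23.5 and 29.9 at 6 h. Later in K354 it read 102, 133 and 119 at 12 h, 460, 263 and 409 at 24 h and 587, 786 and 713 at 48 h. K354 thus left the range of its control between 2 h and 6 h. In C418 it read 11.1, 11.0 and 12.2 in the control, 20.6, 16.9 and 35.2 at 2 h and 35.4, 45.3 and 15.2 at 6 h. Later in C418 it read 62.6, 79.8 and 119 at 12 h, 353, 345 and 468 at 24 h and 1090, 1154 and 1189 at 48 h. As with LOC_Os08g36910, C418 was above its control by 2 h and array 3 at 6 h lay low.

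Against the control, AMY3D in K354 differed by 0.05 at 2 h (adjusted p = 0.93) and rose by 1.11 at 6 h (adjusted p = 0.0057), 3.1 at 12 h (adjusted p = 1.6e-09), 4.74 at 24 h (adjusted p = 1.9e-13) and 5.65 at 48 h (limma adjusted p = 1.6e-15). In C418 it rose by 1.01 at 2 h (adjusted p = 0.011), 1.34 at 6 h (adjusted p = 0.00097), 2.88 at 12 h (adjusted p = 6.4e-09), 5.07 at 24 h (adjusted p = 3.6e-14) and 6.65 at 48 h (limma adjusted p = 3.3e-17). The SE of each was 0.295. With the dim controls at the 25th percentile the 48 h increase was at least 24.3-fold in K354 and at least 41.0-fold in C418. With values raised to the 25th percentile, the calls at 2 h in C418 and at 6 h in both lines were lost. Those of C418 at 2 h and 6 h were lost too by the methods' t-test (adjusted p = 0.084 and 0.16) and the SAM statistic (adjusted p = 0.35 and 0.58). The 2 h call in C418 was also lost without array 3 of that group (0.71), while without array 3 of C418 at 6 h the 6 h rise became 1.81. On the brighter probe set no line difference of AMY3D passed in the main fit. At 48 h it averaged 695 ± 100 in K354 and 1144 ± 49.9 in C418 (SD, n = 3), a difference of −0.73 (interval −1.33 to −0.12, adjusted p = 0.084). That difference passed with values raised to the 25th percentile (adjusted p = 0.0087) or the groups fitted alone (adjusted p = 0.026). By the methods' t-test it did not (adjusted p = 0.088). The 48 h interaction was −0.99 (interval −1.85 to −0.14, adjusted p = 0.16), and 0.013 was its adjusted p with the 4 groups compared alone.

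The second AMY3D probe set followed a later course. In K354 it read 20.3, 24.8 and 25.9 in the control, 32.0, 38.2 and 43.6 at 12 h, 95.8, 57.6 and 82.9 at 24 h and 426, 686 and 548 at 48 h. C418 had 20.9, 19.7 and 24.1 in the control, 28.3, 45.0 and 57.8 at 12 h, 126, 111 and 276 at 24 h and 391, 516 and 515 at 48 h. Both lines thus reached their highest level on this probe set at 48 h. The rise at 12 h was at least 1.32-fold in K354 (adjusted p = 0.044) and at least 1.5-fold in C418 (adjusted p = 0.0042), and that at 48 h at least 19.1-fold in K354 (adjusted p = 8.9e-15) and at least 16.8-fold in C418 (adjusted p = 8.4e-15), since both controls were dim. At 2 h it differed from the control by −0.24 in both lines with no call, where the brighter probe set had risen in C418. The line difference of this probe set was −1.03 at 24 h (adjusted p = 0.0064) and 0.21 at 48 h (adjusted p = 0.65). At 24 h the lowest array was array 2 of K354, one of those that stood apart. The interaction there was −1.16 (limma adjusted p = 0.13), and the brighter probe set had a line difference of −0.07 (limma adjusted p = 0.93). The 2 probe sets thus disagreed in timing and in the sign of the 48 h line difference, though each rose by 48 h in both lines.

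The other 4 measured α-amylases stayed within narrow ranges. AMY1A lay between 4.95 and 11.8 and was dim on all 36 arrays. Its 1 call was a rise of 0.58 in K354 at 2 h (11.8, 8.9 and 9.63, against 6.59, 6.38 and 7.2 in the control, adjusted p = 0.019). It was lost without array 1 of that group (0.46) or without array 1 or 2 of the control, and with values raised to the 25th percentile the difference was −0.06. At 48 h it differed by 0.42 in K354 (adjusted p = 0.054) and 0.26 in C418 (adjusted p = 0.24). AMY3E, the neighbour of AMY3D, lay between 17.8 and 27.6, was dim on 35 arrays, and passed no test. Its 48 h difference was 0.16 in K354 (interval −0.08 to 0.39) and 0.05 in C418 (interval −0.18 to 0.29), so the increase of AMY3D had no counterpart of that size in the gene beside it. Scaled to either set of control RNAs, AMY1A and AMY3E were lower than the control at 48 h in both lines.

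AMY2A was never dim, with a range of 53.6 to 106, and it fell at 48 h in both lines. It read 53.8, 70.7 and 65.0 in K354 at 48 h, against 85.2, 84.1 and 78.5 in its control, and fell by 0.4 (adjusted p = 0.0072). C418 had readings of 66.3, 61.0 and 53.6 at 48 h, against 76.7, 78.7 and 76.3 in its control, a difference of −0.36 (adjusted p = 0.012). Neither line's 48 h arrays overlapped with those of its control, though the K354 call was lost without array 1 at 48 h (−0.28) and the C418 call without array 3 at 48 h (−0.28). AMY2A also gave the one line difference among the 5 genes found by symbol and read at their brighter probe set: K354 had 87.8, 86.2 and 103 at 6 h, against 77.3, 68.3 and 68.0 in C418, a difference of 0.37 (adjusted p = 0.029) that was lost without array 3 of K354, array 2 of C418 or array 3 of C418 at 6 h (0.29 at the lowest).

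AMY3A lay between 23.6 and 38.2 and was dim on 10 arrays. In K354 it fell by 0.3 at 12 h (adjusted p = 0.047) and by 0.4 at 48 h (27.8, 27.6 and 28.9, against 38.0, 38.1 and 35.5 in the control, adjusted p = 0.0042). The 12 h call was lost without array 2 or 3 at 12 h or any one array of the control (−0.34 to −0.27). In C418 the 48 h difference was −0.23 (27.4, 26.8 and 25.0, against 31.2, 36.5 and 26.2 in the control, adjusted p = 0.09), and the interaction of −0.17 did not pass (adjusted p = 0.62). AMY2A and AMY3A thus passed the test only as lower in the cold, and by no more than 0.4.

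**Figure D3:**
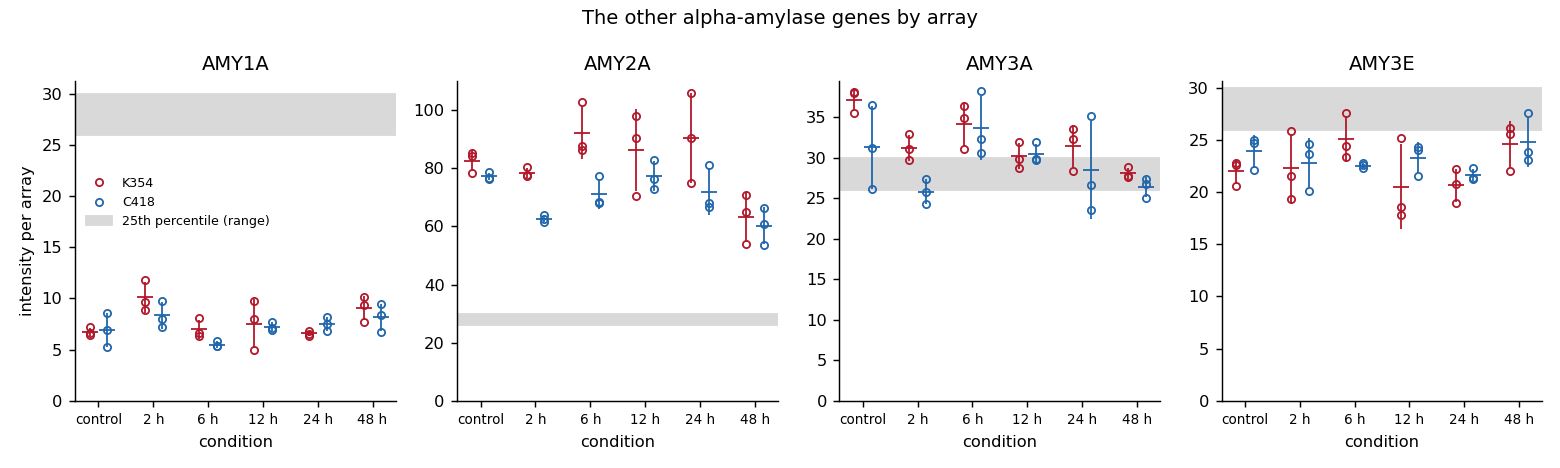
Intensity (linear axis, 1 panel per gene) of AMY1A, AMY2A, AMY3A and AMY3E in each of the 36 arrays by condition, with K354 to the left of C418. Points are arrays, dashes group means with SD bars, and the grey band is the range of the 25th percentile over the arrays. AMY2A stays above that band, at 53.6 to 106, and is low at 48 h in both lines, while AMY1A stays under it, at 4.95 to 11.8.

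Counted over the 5 measured α-amylases found by symbol, with LOC_Os08g36910 left out, 1 was higher in K354 at each of the 5 times, where the share of all probe sets called higher was 6.79, 8.96, 11.9, 19.3 and 23.5% in that order. It was AMY1A at 2 h and, from 6 h on, AMY3D, which may be the left-out locus itself. In C418 the 1 called higher was AMY3D at every time, beside 7.02, 7.98, 12.9, 18.7 and 25.1% of all probe sets. AMY3A was lower in K354 at 12 h and AMY2A and AMY3A at 48 h, and AMY2A was lower in C418 at 48 h. Over all probe sets 20.2, 12.8, 19.3, 21.8 and 27.1% were lower in K354 and 21.7, 13.5, 16.5, 22.5 and 28.3% in C418 across the 5 times, from 2 h to 48 h. With 5 genes, 1 or 2 called is a share near these backgrounds, so the counts are no result about the family, and with AMY3D left out 0 of the other 4 was higher at 48 h. The median difference of the 5 at 48 h was 0.16 in K354 and 0.05 in C418, beside −0.03 and −0.02 over all probe sets.

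Between K354 and C418, 1 of the 5 genes differed at 6 h and 0 in the control or at 2, 12, 24 and 48 h. The share of all probe sets that differed in either direction was 9.47% in the control, 15.2% at 2 h, 18.0% at 6 h, 16.2% at 12 h, 11.4% at 24 h and 20.4% at 48 h. An interaction was called for 1.62, 0.391, 1.76, 1.56 and 7.88% of all probe sets across the 5 times, from 2 h to 48 h, and for 0 of the 5 genes.

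Over the 12 group means, AMY3D (r = 0.986) was among the 5 genes most like LOC_Os08g36910 of 17905 with a probe set. The others were MGD3 (r = 0.987), whose symbol is that of a galactolipid synthase, and 3 genes known by number only, LOC4333912 (r = 0.987), LOC4327407 (r = 0.986) and LOC4329616 (r = 0.985). The 48 h difference of MGD3 from control was 2.87 in K354 and 3.29 in C418, and LOC4327407 averaged below the 25th percentile in both controls, so that its size of change is not given. These correlations describe 12 points that share the same arrays and 2 controls. A like course was common, with an r of at least 0.95 for 332 of the 17905 genes and of at least 0.9 for 1093. AMY3D may also be the same gene as LOC_Os08g36910.

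LOC_Os10g41550, a β-amylase locus, was taken from the study's list of genes cold-induced in both lines at all stages. Its cold change is therefore given with no test. It was higher at each later time in both lines. In K354 it read 329, 321 and 262 in the control, 678, 945 and 1216 at 2 h and 1751, 1528 and 1763 at 6 h. Later in K354 it read 2445, 3054 and 2838 at 12 h, 4648, 4419 and 4040 at 24 h and 5208, 6754 and 6176 at 48 h. Every cold group of K354 thus stood clear of its control. Readings of C418 were 210, 235 and 204 in the control, 750, 953 and 1175 at 2 h and 1585, 1538 and 979 at 6 h. Later in C418 it read 2293, 2751 and 2726 at 12 h, 4299, 4144 and 4292 at 24 h and 5420, 5882 and 5908 at 48 h. The β-amylase locus was clear of its control at 2 h in K354, but its choice from genes induced at all stages favours an early rise. LOC_Os08g36910 was dim in K354 at 2 h, so the timing of both loci cannot be compared.

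The β-amylase locus averaged 6046 ± 781 at 48 h in K354 against 304 ± 36.6 in its control, a log2 difference of 4.31, and 5737 ± 275 in C418 against 217 ± 16.7, a difference of 4.73 (SE 0.176). Between the lines it differed by 0.48 in the control (adjusted p = 0.091), and no line difference or interaction passed. A gene chosen for its induction in both lines is drawn toward a like response. These tests therefore cannot show that the lines respond alike. The interactions, from 2 h through 48 h, were −0.52, −0.16, −0.38, −0.44 and −0.41, with an adjusted p of 0.53, 0.96, 0.54, 0.59 and 0.36.

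**Figure D4:**
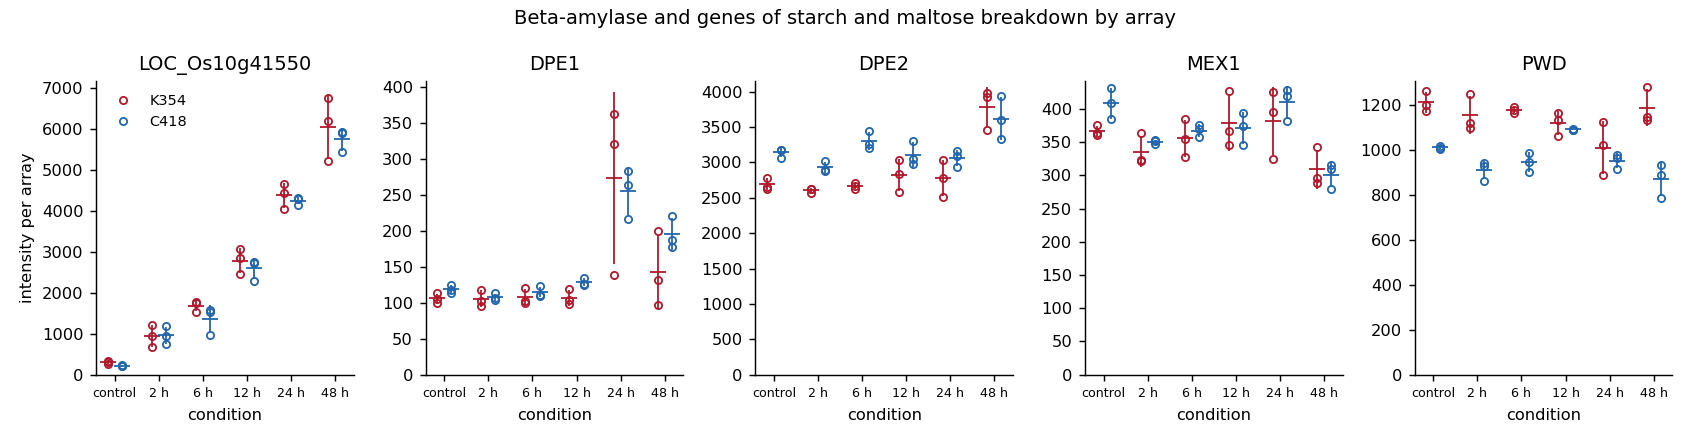
Intensity (linear axis, 1 panel per gene) of the β-amylase locus LOC_Os10g41550 and of DPE1, DPE2, MEX1 and PWD in each of the 36 arrays by condition, with K354 to the left of C418. Points are arrays and dashes group means with SD bars. The β-amylase locus reaches 5208 to 6754 in K354 and 5420 to 5908 in C418 at 48 h, and DPE1 has its highest mean at 24 h in both lines.

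Of 5 further genes of starch breakdown 4 were measured, and ISA1, a debranching enzyme, was not. At 48 h, 1 rose and 1 fell in K354, and 2 rose and 2 fell in C418, with a median difference of 0.17 in K354 and −0.01 in C418. The background at 48 h was 23.5% called higher and 27.1% called lower in K354, and 25.1% and 28.3% in C418, and counts of so few genes say nothing beyond that. DPE2, the cytosolic disproportionating enzyme that takes up maltose, read 3975, 3452 and 3925 in K354 at 48 h against 2630, 2653 and 2785 in its control, and rose by 0.49 (adjusted p = 2.6e-06). In C418 it read 3598, 3326 and 3934 against 3068, 3179 and 3176, and rose by 0.2 (adjusted p = 0.025), a call lost without array 3 at 48 h or array 1 of the control (0.14 at the lowest). The interaction of 0.29 missed the threshold (adjusted p = 0.097), and scaled to the hybridization or the poly-A controls DPE2 was lower at 48 h in both lines.

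DPE1, the plastid disproportionating enzyme, had its highest group mean at 24 h in both lines. Its arrays of 24 h and 48 h overlapped in each line, and those times were not compared by a test. It read 321, 138 and 362 in K354 at 24 h, against 99.9, 105 and 113 in the control, and rose by 1.25 (adjusted p = 3.9e-05), with array 2, one of those that stood apart, the lowest. C418 had 264, 283 and 217 at 24 h, against 118, 114 and 125, where it rose by 1.09 (adjusted p = 0.00022). At 48 h it was 0.71 above the control in C418 (221, 178 and 187, adjusted p = 0.009), lower instead when scaled to the hybridization or poly-A controls, and 0.37 in K354 (97.4, 199 and 131, adjusted p = 0.18).

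MEX1, the maltose exporter, fell at 48 h in both lines. It read 288, 343 and 296 in K354 at 48 h, against 363, 375 and 361 in its control (−0.25, adjusted p = 0.027), and 279, 315 and 309 in C418 against 385, 409 and 431 (−0.44, adjusted p = 0.00021). The K354 call was lost without array 1 or 3 at 48 h or array 1 or 2 of the control (−0.33 to −0.20). PWD, a kinase that phosphorylates starch before its breakdown, read 1283, 1136 and 1146 in K354 at 48 h against 889, 788 and 935 in C418 at 48 h, a line difference of 0.45 (adjusted p = 6.5e-05). It fell in C418 by 0.22 (adjusted p = 0.017, lost without array 2 at 48 h at −0.15), while in K354 the difference was −0.03 (adjusted p = 0.77) and the interaction of 0.19 did not pass (adjusted p = 0.34). PWD was also 0.26 higher in K354 than in C418 without cold (adjusted p = 0.029).

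Among 7 genes of starch synthesis, 1 rose and 2 fell at 48 h in K354, and 0 rose and 4 fell in C418. The median differences were −0.13 in K354 and −0.22 in C418, and the K354 counts are near the 23.5% higher and 27.1% lower over all probe sets, beside 25.1% and 28.3% in C418. Those of C418 were not tested against that background, and 7 genes are too few to read them as a result. The soluble starch synthase SSII-2 fell less in K354, where it read 1775, 1686 and 1483 at 48 h against 2157, 2039 and 2134 in the control (−0.36, adjusted p = 0.025), than in C418, where it read 708, 1185 and 966 against 2041, 2083 and 2123 (−1.16, adjusted p = 1.4e-08). The interaction was 0.8 (adjusted p = 0.0068, and 0.068 with the 4 groups fitted alone). The K354 call was lost without array 3 at 48 h or array 1 or 3 of the control (−0.42 to −0.29). Its paralogue SSII-1 read 736, 697 and 636 in K354 at 48 h against 703, 751 and 618 in its control, a difference of −0.0 (adjusted p = 1), and fell by 0.69 in C418, where it read 315, 348 and 352 against 551, 556 and 533 (adjusted p = 3.9e-07). Its interaction was 0.69 (adjusted p = 0.0012). The leaf markers moved the same way, with 3 of 5 past the threshold of the 48 h interaction and higher in K354. Over all probe sets 7.88% passed it in either direction. RBCS-A, 1 of the 5, was dim on all 36 arrays. The part of the leaf markers in the result was not tested.

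Of 19 measured genes of sucrose cleavage, synthesis and transport, 8 rose and 3 fell at 48 h in K354, and 6 rose and 5 fell in C418, with median differences of 0.29 in K354 and 0.12 in C418. The background was 23.5% higher and 27.1% lower in K354 and 25.1% and 28.3% in C418, and the C418 counts are near it. The K354 counts were not tested against it, and 19 genes are too few to read them as a result. CINV1, a cytosolic invertase, read 1263, 1310 and 1364 in K354 at 48 h against 560, 618 and 636 in the control and rose by 1.12 (adjusted p = 6.6e-11). In C418 it read 1655, 1523 and 1608 against 610, 645 and 649 and rose by 1.33 (adjusted p = 1.3e-12), though scaled to the poly-A controls it was lower in both lines. The sucrose transporter SUT4 rose by 1.69 in K354 (1853, 1672 and 1441 against 519, 525 and 492, adjusted p = 1.3e-10) and by 1.55 in C418 (1363, 1246 and 1420 against 462, 451 and 464, adjusted p = 5.7e-10). CIN7, a cell-wall invertase, fell by 1.72 in K354 (168, 179 and 142 against 497, 532 and 573, adjusted p = 9.6e-15) and by 1.75 in C418 (180, 153 and 162 against 523, 553 and 581, adjusted p = 4.4e-15). These 3 genes thus passed the test in the same direction in both lines, SUT4 not when scaled to the poly-A controls (0.34 in K354 and 0.09 in C418).

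Of the 19 genes, 2 sucrose transporters had a called interaction at 48 h, a share near the 7.88% of all probe sets. SUT1, the phloem transporter, read 612, 578 and 521 in K354 at 48 h against 667, 727 and 569 in its control (−0.19, adjusted p = 0.19), and 455, 352 and 468 in C418 against 717, 835 and 676 (−0.81, adjusted p = 1.5e-06), with an interaction of 0.62 (adjusted p = 0.023). Fitted alone, the 4 groups gave an adjusted p of 0.11, and scaled to the poly-A controls the interaction was 0.73 (adjusted p = 0.079). The call was also lost without array 1 at 48 h or array 3 of the control in K354, or array 2 of either group in C418 (0.49 to 0.70). SUT2, a vacuolar transporter named after its values were seen, read 2028, 1815 and 1956 in K354 at 48 h against 1442, 1383 and 1327 in its control and rose by 0.48 (adjusted p = 6.6e-07), less than the shift of the hybridization controls. In C418 it read 1314, 1262 and 1379 against 1234, 1244 and 1227 (0.09, adjusted p = 0.26), and the interaction was 0.39 (adjusted p = 0.0098, and 0.091 with the 4 groups fitted alone). Scaled to the poly-A controls that interaction was 0.50 with no call (adjusted p = 0.17). Both genes thus stood higher in K354 relative to C418 at 48 h than in the control.

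**Figure D5:**
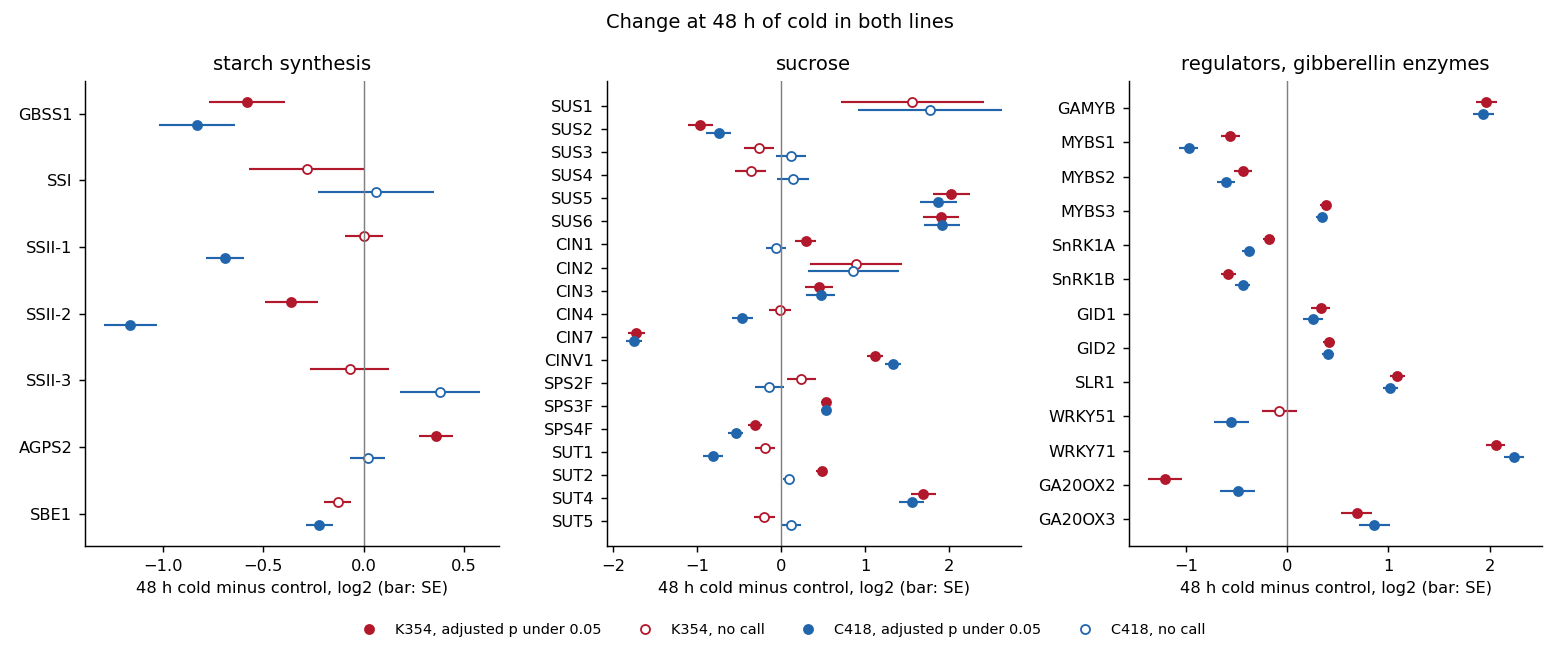
Log2 difference of 48 h of cold minus control for each measured gene of starch synthesis, of sucrose metabolism and transport, and of amylase regulation and gibberellin synthesis, with K354 above C418. Points are limma estimates with SE bars, filled where the adjusted p is under 0.05. GAMYB and WRKY71 lie near 2 in both lines, CIN7 at −1.72 in K354 and −1.75 in C418, and SSII-2 at −0.36 in K354 and −1.16 in C418.

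Among 11 measured regulators of α-amylase genes, 6 rose and 4 fell at 48 h in K354, and 6 rose and 5 fell in C418. Over all probe sets these shares were 23.5% higher and 27.1% lower in K354, and 25.1% and 28.3% in C418. WRKY71, a repressor of gibberellin-induced amylase in cereal aleurone, rose by 2.06 in K354 (10068, 10296 and 9575 against 2082, 2331 and 2825, adjusted p = 1.9e-16) and by 2.24 in C418 (10413, 10115 and 10945 against 1991, 2346 and 2331, adjusted p = 2.1e-17). At 2 h it read 3990, 4505 and 4648 in K354 against 5491, 6289 and 6859 in C418, and rose from control by 0.87 in K354 (adjusted p = 1.3e-07) and 1.48 in C418 (adjusted p = 3.2e-12). That 2 h response was smaller in K354, with an interaction of −0.61 (adjusted p = 0.013). It was lost with the 4 groups fitted alone (adjusted p = 0.1), with scaling to the poly-A controls (−0.55, adjusted p = 0.57) and without any of 4 arrays, which were array 1 at 2 h and array 3 of the control in K354, and array 3 at 2 h and array 1 of the control in C418 (−0.71 to −0.49).

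GAMYB, the activator of gibberellin-induced amylase, rose by 1.97 at 48 h in K354 (1267, 1379 and 1289 against 342, 332 and 330, adjusted p = 1.5e-15) and by 1.94 in C418 (1398, 1324 and 1500 against 375, 347 and 375, adjusted p = 1.3e-15). MYBS1, an activator of AMY3D under sugar starvation, fell by 0.56 in K354 (1012, 982 and 1012 against 1374, 1561 and 1500, adjusted p = 1e-05) and by 0.97 in C418 (651, 674 and 647 against 1160, 1321 and 1385, adjusted p = 5.1e-10). The interaction of MYBS1 was 0.41 (adjusted p = 0.055). Its relative MYBS2 fell by 0.44 in K354 (3135, 2968 and 3028 against 4350, 3999 and 4058, adjusted p = 0.00013) and by 0.6 in C418 (2148, 2427 and 2418 against 3426, 3737 and 3405, adjusted p = 1.5e-06). MYBS1 and MYBS2 were thus lower at 48 h in both lines. MYBS3, also measured (5572 to 7637 over the arrays), was not among the genes picked by adjusted p.

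Of the 2 gibberellin synthesis genes measured, GA20OX2, the semidwarf gene, changed in opposite directions in the lines at 12 h. In K354 it read 332, 228 and 279 in the control, 128, 123 and 122 at 12 h, 119, 183 and 167 at 24 h and 123, 112 and 124 at 48 h. C418 had 204, 226 and 236 in the control, 367, 309 and 262 at 12 h, 257, 202 and 242 at 24 h and 150, 130 and 201 at 48 h. At 12 h it fell by 1.15 in K354 (adjusted p = 3.1e-06) and rose by 0.48 in C418 (adjusted p = 0.031). The interaction was −1.64 at 12 h (adjusted p = 0.00013), −0.92 at 24 h (adjusted p = 0.045) and −0.72 at 48 h (adjusted p = 0.062). The one at 24 h was lost in 9 of the 12 fits that left out an array of its 4 groups (−1.06 to −0.73). It was lost too with quantile normalization (limma adjusted p = 0.051) and with the 4 groups fitted alone (adjusted p = 0.13). Scaling to the hybridization (adjusted p = 0.23) or poly-A controls (adjusted p = 0.31) also lost it. At 48 h GA20OX3 rose by 0.69 in K354 (adjusted p = 0.00037) and by 0.86 in C418 (adjusted p = 2.3e-05), and was lower in both when scaled to the poly-A controls.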

How the data were processed

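The deposited values, made by the authors, were intensities of probe sets, not logged, for 36 arrays of 12 groups of 3. In their methods, GCOS read the arrays and dChip normalized them by its invariant-set method, while the sample records give MAS5. It is not known which program fixed the scale. Of 57381 probe sets, 123 array controls were left out. The log2 values of the other 57258 were fitted in R 4.3.3 with limma 3.58.1 (lmFit, eBayes) as 12 group means, and 21 comparisons were drawn: cold against the control of the line, K354 against C418, and their interaction. Each adjusted p is from limma, by Benjamini-Hochberg over all probe sets of a comparison, with a threshold of 0.05. Intervals are 95% intervals.

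The members and lists were chosen with earlier results of these data known. All α-amylases found by the rule were named. Of other lists up to 2 members per direction with the smallest adjusted p at 48 h in C418 were named, and the 5 genes most like LOC_Os08g36910. Genes were matched by symbol or synonym only, so genes known by number alone were missed. Lower bounds put the 25th percentile of the array in place of a dim group. Same-numbered replicates were no more alike than others (mean residual correlation 0.00287, against −0.00132), so they were not paired. Alternatives were scaling to control RNAs, quantile normalization, median centring, a floor, a filter on dim probe sets, all probe sets of a gene, the groups alone, the replicate block, the methods' t-test, a SAM statistic, a 5-fold minimum and leaving out each array. The SAM statistic was read against a t distribution with no permutation. It is thus stricter than the t-test, and calls lost by it do not show what the SAM software would give. Promoter motifs were not examined here. The fit was tested on simulated data of C418 at 48 h, where it called 44 of 50 probe sets changed 2-fold and 50 of 50 changed 16-fold, and 13 of 57058 left unchanged. Python 3.11.15 with pandas 2.3.3, numpy 2.4.6 and matplotlib 3.10.9 made the tables and figures.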

Additional observations from a re-analysis of the deposited data

Results flagged for a closer look

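All measured genes of the lists, marker genes aside, were screened at each time of cold. They were 6 α-amylases, 1 β-amylase, 4 further genes of starch breakdown, 7 of starch synthesis, 19 of sucrose, 11 regulators and 2 gibberellin enzymes. Of these, 7 genes had a cold response that differed between K354 and C418 by the test of the difference itself (limma interaction, adjusted over all probe sets). Over all probe sets the share with such a call was 1.62% at 2 h and 0.391% at 6 h. It was 1.76% at 12 h, 1.56% at 24 h and 7.88% at 48 h. A few calls among the genes screened at 48 h are thus near the background. LOC_Os08g36910, chosen by its cold induction, had −2.8 on the log2 scale at 2 h, but 10 of the 12 arrays behind it were dim and with values raised to the 25th percentile it was −0.21 (adjusted p = 0.92). WRKY71 responded less in K354 at 2 h (−0.61). At 48 h the interactions were 0.69 for SSII-1, 0.8 for SSII-2, 0.62 for SUT1 and 0.39 for SUT2. GA20OX2 had −1.64 at 12 h and −0.92 at 24 h, the latter lost with quantile normalization, either control scaling or the groups fitted alone.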

How the results depend on the processing

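LOC_Os08g36910 was higher at 48 h under every alternative that gave a value, by 6.52, 5.84 and 5.38 in K354 and 7.38, 6.74 and 6.14 in C418 with scaling to hybridization controls, scaling to poly-A controls and the floor, and AMY3D was likewise higher there. The 2 h line difference of LOC_Os08g36910 was −0.19 with the floor. Dim signal limits the early times and AMY1A and AMY3E throughout. Where a count changed, the cause was not tested beyond what the alternative itself removes.

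Counts at 48 h moved as follows. The 1 α-amylase higher in K354 became 2 with the groups alone and 0 with AMY3D left out, a count chosen after seeing the data. With all probe sets of a gene it became 2 probe sets, both of AMY3D. The 1 higher in C418 likewise became 0 with AMY3D left out and 2 probe sets of AMY3D with all probe sets of a gene. The 2 lower in K354 became 4 (poly-A scaling), 1 (dim probe sets left out, t-test) or 0 (SAM, 5-fold minimum). The 1 lower in C418 became 2 (median centring), 4 (either control scaling) or 0 (SAM, 5-fold minimum). The 0 interactions became 1 with the groups alone. Of starch breakdown, the 1 higher in K354 became 0 with either control scaling, SAM or the 5-fold minimum, and the 1 lower became 2 (hybridization), 4 (poly-A) or 0 (groups alone, t-test, SAM, 5-fold minimum). In C418 the 2 higher became 1 (quantile normalization, median centring, groups alone, t-test) or 0 (either control scaling, SAM, 5-fold minimum), and the 2 lower became 4 (poly-A), 1 (groups alone, t-test) or 0 (SAM, 5-fold minimum). Leaving out 1 array gave 1 to 2 α-amylases higher and 1 to 2 lower in K354 and 0 to 2 lower in C418. For starch breakdown it gave 1 to 2 higher and 0 to 1 lower in K354, and 1 to 2 higher and 1 to 2 lower in C418.

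Directions turned for AMY1A in K354 at 2 h (−0.06, floor) and AMY3D in C418 at 2 h (−0.24, dimmer probe set). At 48 h, hybridization scaling gave DPE1 −0.10 in C418 and DPE2 −0.18 in K354 and −0.61 in C418. Poly-A scaling gave DPE1 −0.75 in C418, DPE2 −0.86 in K354 and −1.25 in C418, CINV1 −0.23 in K354 and −0.13 in C418, and GA20OX3 −0.65 in K354 and −0.60 in C418. With the replicate block, 164 of 166 tested values kept their side of the threshold. The calls lost were AMY3A in K354 at 12 h (−0.30, adjusted p = 0.055) and the GA20OX2 interaction at 24 h (−0.92, adjusted p = 0.056).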
